A study of Mus musculus with 15 samples.

Results

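Whole blood RNA was compared between mice given αCTLA-4 with late neck dissection (ND) and mice given αCTLA-4 with early ND. The rule took every gene of the deposited count tables, which held 55416 genes in each library, and set the 5 libraries labelled late against the 5 labelled early, so 10 of the 15 libraries of the series entered. Of the genes, 13315 had enough counts to be tested. The mice were female C57BL/6 animals, 4 to 6 weeks of age when tumor cells were implanted. In every group, the labels describe 4MOSC1 cells in the tongue, grown for 10 days. 4MOSC1 is a mouse oral squamous cell carcinoma line with a tobacco-related mutation pattern, used here in hosts of the same strain. Both ND groups had 2 doses of αCTLA-4 (clone 9H10), and the lymph nodes that drain the tongue were removed early (day 6) or late (day 11). The labels of the other 5 mice read untreated, with no surgery, and their values stand beside the results as a reference. The sources differ on the timing: one puts the bleed at day 10, a day before late ND, and the other puts it later than the delayed operation. The words "after late ND" below name the group under either reading. Whether a mouse was bled before or after its operation, and the time since surgery, cannot be told apart from the group.

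Blood RNA is a mixture. Red cells and reticulocytes supply most of it as globin transcripts, platelets carry transcripts inherited from megakaryocytes, and neutrophils, monocytes, lymphocytes and a few dendritic cells add the rest. Monocytes leave the marrow as classical cells and mature in the blood into nonclassical cells that patrol the vessel wall, while antibody-secreting plasmablasts are rare passengers between lymphoid tissue and marrow. In such samples, fewer cells of a type and less RNA per cell cannot be told apart.

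The libraries differed in makeup between the groups. Between 5527108 and 7182346 counts fell on genes in the early ND mice and between 7849602 and 13924361 in the late ND mice. Genes of the red cell list took 41.13% to 69.31% of these counts after early ND and 16.52% to 31.44% after late ND, and those of the neutrophil list 0.744% to 2.62% and 4.19% to 5.90%. In late mice 2 and 3, 18S ribosomal RNA (Rn18s-rs5) made up 313 and 521 counts per 1e+06 unscaled gene counts, against at least 13402 in the other 8 libraries. The number of calls and some of the results below are therefore also given for the 8 libraries rich in 18S sequence. CPM here is the count of a gene per 1e+06 counts of its library after TMM scaling, which centres the typical gene.

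Genes moved in both directions after late ND. With p-values of edgeR's quasi-likelihood test adjusted by Benjamini-Hochberg across every gene tested, 333 genes were called higher (2.5%) and 330 lower (2.48%) at an adjusted p under 0.05. Over every gene tested, the median log2 fold change was 0.01, and 6894 of the 13315 lay above 0. At an unadjusted p under 0.05 in edgeR's test, 1921 of the 13315 were higher and 1242 lower. DESeq2, an alternative test, called 769 of the 13315 higher and 670 lower at an adjusted p under 0.05. These counts are the background for those of the lists below. Outside the red cell and neutrophil lists 312 genes rose (2.38% of those tested outside) and 278 fell (2.12%). The lists need not be complete, so genes outside them can also be expressed in red cells or neutrophils. The part of those cells in these changes was not tested. In 226 of the 312 rises every late mouse lay above every early mouse (background 3.63% of all genes). In 196 of the 278 falls every late mouse lay below (background 2.46%). Calls made on the same values favor such separation, so it is no further support for them. The rises were smaller (median 0.74 on the log2 scale), and 63 genes reached a fold of 2 or more. The falls had a median of -1.25, and 184 reached that fold. With library totals in place of TMM, the median of all genes moved to 0.86 and the calls turned to 8908 higher and 137 lower, so directions below are relative to the typical gene.

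The number of calls depended on single mice. Without early mouse 3 the rises outside both lists numbered 962, and without early mouse 1, 2 or 4 they numbered 95, 86 and 37. Leaving out late mouse 1, 3, 4 or 5 left 80, 39, 36 and 61. The falls numbered 499 without early mouse 3, 87 without early mouse 4, 180 without early mouse 5, and 174, 84, 125 and 147 without late mouse 1, 3, 4 or 5. In all 10 fits that leave out 1 mouse, each called gene that could be tested kept its direction, and 23 of the 312 rises and 72 of the 278 falls were called every time. Among the 8 libraries rich in 18S sequence, 4 genes were called, all higher, among them Tmem176b, Ppard and the neutrophil gene Itgb2l, and 1732 genes were higher and 1481 lower at an unadjusted p under 0.05. With the hemoglobin share as a covariate, edgeR called 0 genes, with 578 higher and 494 lower at an unadjusted p under 0.05. That share does not overlap between the groups. It sums alpha and beta chains, whose beta to alpha ratio was 0.456 and 0.434 in late mice 2 and 3. In the other ND libraries the ratio was at least 1.6, so the scale of the share may differ between mice.

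**Figure D1:**
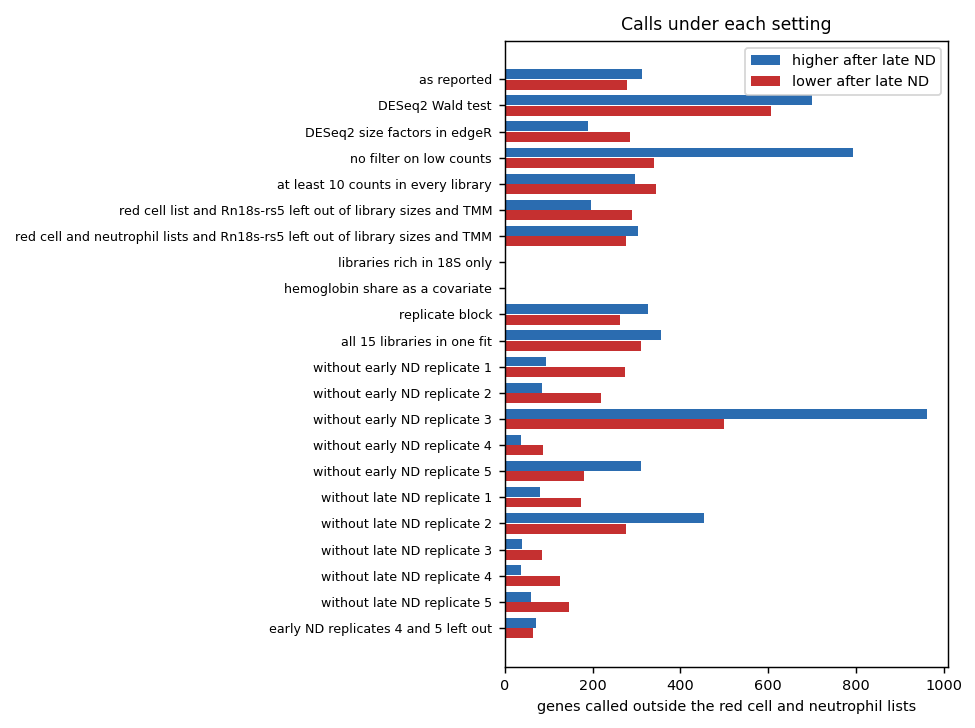
Number of genes outside the red cell and neutrophil lists called higher (blue) or lower (red) after late ND, under each setting of the test. Calls outside both lists run from 0 with the hemoglobin share as a covariate to 962 rises without early mouse 3. The fit with library totals, with 8758 rises and 97 falls, is left off the axis.

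Lists of genes for blood lineages and pathways are described by their counts and medians. All the lists were chosen with earlier results of these data known. A share of called genes above that of all genes is therefore a description and no independent support. Called members beyond those that the naming rule picks were chosen after their values were seen.

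**Figure D2:**
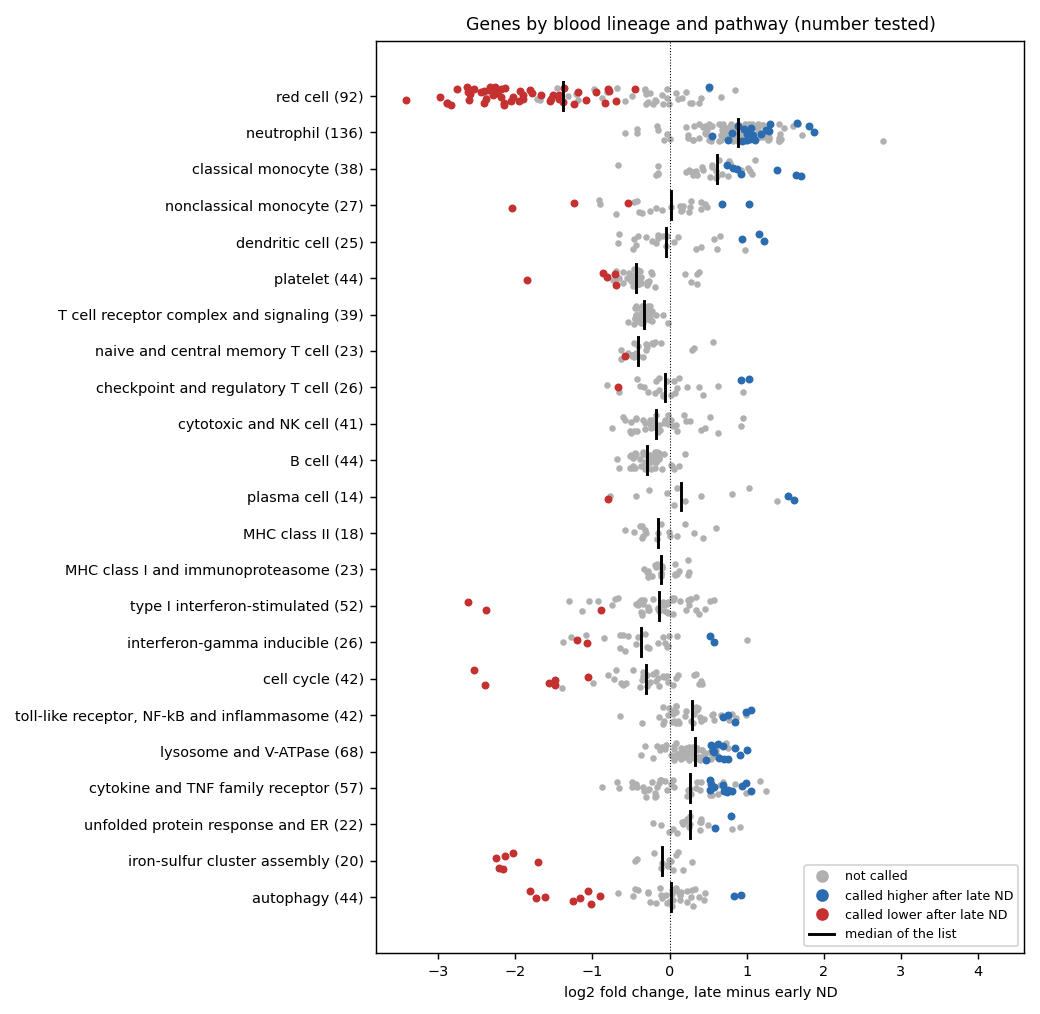
Log2 fold change, late minus early ND (x axis), of each tested gene by lineage or pathway list (y axis, number tested in parentheses). Blue and red points passed edgeR's test, grey points did not, and black bars mark medians: the classical monocyte list is centred at 0.61 and the red cell list at -1.38, while the 39 T cell genes all lie below 0 with none called.

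Of 38 genes of classical monocytes tested, 7 were called higher and 0 lower (18.4% against 2.5% of all genes), 33 lay above 0, and the median log2 fold change was 0.61, or 0.82 in the libraries rich in 18S sequence. Fn1, which encodes the matrix protein fibronectin and is abundant in classical monocytes (ENSMUSG00000026193, GRCm39 chromosome 1, 71624673 to 71692419), had 62.4, 71.9, 91.3, 46.8 and 98.9 CPM in early mice 1 to 5. In late mice 1 to 5 it had 183, 156, 206, 246 and 369 CPM, so that the lowest late mouse exceeded the highest early mouse. Its log2 fold change was 1.64 (standard error 0.25, edgeR adjusted p = 0.0126), and untreated mice had 69.6 ± 46.2 CPM (SD, n = 5). Vcan, the proteoglycan versican, had 37.1 ± 17.1 CPM after early ND and 97.6 ± 27.7 CPM after late ND (SD, n = 5 each), again without overlap. Csf1r, the receptor for the growth factor on which monocytes depend, had 79.1, 80.0, 95.8, 94.0 and 139 CPM after early ND and 158, 116, 149, 202 and 195 CPM after late ND. Late mouse 2 lay below early mouse 5, the log2 fold change was 0.75 (standard error 0.19, edgeR adjusted p = 0.0425), and the call held in 3 of 10 fits that leave out 1 mouse.

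Other called members were the lysosomal glycoprotein gene Cd68 (log2 fold change 0.82), the amidase gene Naaa (0.93) and Pid1 (0.87). The classical markers Ly6c2 (0.35, edgeR adjusted p = 0.510) and Ccr2, the chemokine receptor that takes monocytes out of the marrow (1.04, edgeR adjusted p = 0.0565), did not pass. In Ccr2 the late mice ran from 336 to 536 CPM and the early mice from 135 to 211 CPM, apart from early mouse 5 at 425 CPM. Summed over the tested list, expression was 2731 to 5332 CPM in early mice and 4500 to 7005 CPM in late mice, so the groups overlapped. The neutrophil list moved in the same direction, with a summed level of 12800 to 29590 CPM in early mice and 26030 to 51930 CPM in late mice. The counting is not stated to use strand in the sources used here, so for genes that overlap others the reads cannot be told apart. Several monocyte genes are also expressed in neutrophils and tissue macrophages, and the part of other cells in these rises was not tested.

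Nonclassical monocyte genes had no common direction. Of 27 tested, 2 rose (7.41% against 2.5% of all genes) and 3 fell (11.1% against 2.48%). The median log2 fold change was 0.02. Clec4a2, an inhibitory C-type lectin of myeloid cells that has close paralogs, rose from 16.1 ± 4.20 CPM to 32.8 ± 5.41 CPM (SD, n = 5 each, log2 fold change 1.03, edgeR adjusted p = 0.0126), without overlap and in 10 of 10 fits that leave out 1 mouse. Apoe, an apolipoprotein gene of macrophages, rose by 0.68. The fatty acid transporter gene Cd36 had 25.1, 30.5, 53.8, 83.6 and 95.9 CPM after early ND and 16.8, 9.86, 13.7, 14.2 and 15.1 CPM after late ND. It fell by 2.04 on the log2 scale (standard error 0.34, edgeR adjusted p = 0.0126). Cd36 is also expressed in platelets and red cell precursors, whose part in this fall was not tested. Among the early mice it was lowest in mouse 1, which had the lowest hemoglobin share of its group (38.3%). It was highest in mouse 5 (50.68%) and not in mouse 4, which had the highest share (64.07%). Defining genes of the subset, Treml4 (log2 fold change 0.17), Cx3cr1 (0.28) and Nr4a1 (0.15), did not pass.

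Tmem176b and Lrp1 were among the 10 largest rises outside the red cell and neutrophil lists, while Tmem176a, Ms4a8a, Trem2, Msr1 and Sirpa were chosen after their values were seen, with no count over genes of their kind. Tmem176b, a membrane protein gene of monocytes and dendritic cells, had 8.57, 9.19, 9.28, 11.6 and 10.6 CPM after early ND and 36.8, 20.3, 14.3, 40.7 and 22.9 CPM after late ND. The groups did not overlap, the log2 fold change was 1.47 (standard error 0.27, edgeR adjusted p = 0.0141), and the gene was also called among the libraries rich in 18S sequence (1.77). Its neighbor Tmem176a rose by 1.53, although 1 late mouse fell within the early range. Lrp1, an endocytic receptor of macrophages, rose from 70.5 ± 26.6 CPM to 182 ± 61.8 CPM (SD, n = 5 each), a log2 fold change of 1.37. Ms4a8a (1.18), the lipid receptor gene Trem2 (0.92), the scavenger receptor gene Msr1 (1.04) and Sirpa, which binds the CD47 signal on other cells (0.86), also rose.

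**Figure D3:**
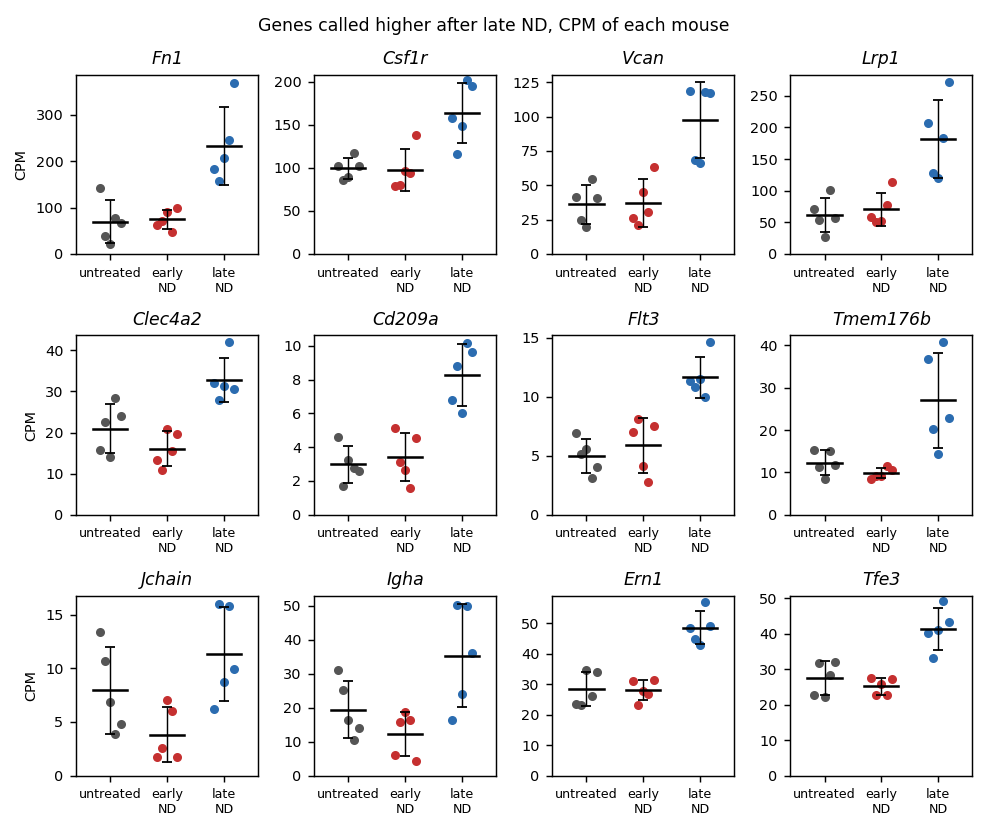
CPM (y axes, linear from 0) of 12 genes called higher after late ND in each untreated (grey), early ND (red) and late ND (blue) mouse. Lines are means and error bars 1 SD (n = 5): for Fn1 the late mice span 156 to 369 CPM and the early mice 46.8 to 98.9 CPM, while for Jchain the groups overlap.

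Of 25 dendritic cell genes tested, 3 rose and 0 fell (12% against 2.5% of all genes higher), and the median was -0.04. The 3 were Cd209a, a lectin gene of monocyte-derived and type 2 dendritic cells, Clec10a, a galactose-type lectin gene of the same cells, and Flt3, the receptor for the dendritic cell growth factor. Cd209a (ENSMUSG00000031494, GRCm39 chromosome 8, 3793397 to 3798984) had 5.14, 3.13, 2.67, 1.6 and 4.53 CPM after early ND and 6.77, 8.82, 6.00, 10.2 and 9.61 CPM after late ND. No late mouse fell among the early mice, and the log2 fold change was 1.22 (standard error 0.27, edgeR adjusted p = 0.0267). Clec10a had 3.44 ± 1.56 CPM and 8.12 ± 2.37 CPM (SD, n = 5 each), a log2 fold change of 1.16 that held in 1 of 10 fits that leave out 1 mouse. Flt3 rose by 0.94, from 5.91 ± 2.33 CPM to 11.6 ± 1.76 CPM (SD, n = 5 each), without overlap. Xcr1, the chemokine receptor gene of type 1 conventional dendritic cells, had 4.57, 2.02, 2.99, 2.40 and 2.01 CPM after early ND and 0.937, 1.94, 1.46, 2.07 and 2.53 CPM after late ND, with overlap and no call (log2 fold change -0.67, edgeR adjusted p = 0.232). Siglech, a gene of plasmacytoid cells, was at 0.66 and also did not pass (edgeR adjusted p = 0.184). Nor did Batf3, a transcription factor gene of type 1 cells (0.98, edgeR adjusted p = 0.103), or Clec9a, a lectin gene of the same cells (-0.04, edgeR adjusted p = 0.939), and no test compared the subsets.

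No gene of the antigen presentation lists passed edgeR's test. In the MHC class II list 0 of 18 genes were called (1 higher and 1 lower at an unadjusted p under 0.05), with a median of -0.15. Its smallest p belonged to the thiol reductase gene Ifi30 (log2 fold change 0.61, edgeR adjusted p = 0.0745). The class I and immunoproteasome list also had 0 of 23 called, 0 of them at an unadjusted p under 0.05, and its log2 fold changes ran from -0.34 to 0.25. DESeq2 called 0 genes in either list.

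Of 14 plasma cell genes tested, 2 rose (14.3% against 2.5% of all genes) and 1 fell (7.14% against 2.48%). Jchain and Igha rose, and Ell2, an elongation factor gene that red cell precursors also use, fell. Jchain, which joins IgA and IgM into multimers (ENSMUSG00000067149, GRCm39 chromosome 5, 88667668 to 88675750), had 1.71, 2.57, 7.08, 6.00 and 1.76 CPM after early ND and 6.25, 16, 8.72, 15.8 and 9.97 CPM after late ND. Late mouse 1 lay below early mouse 3, and the log2 fold change was 1.61 (standard error 0.41, edgeR adjusted p = 0.0429). Igha, the constant region of IgA (ENSMUSG00000095079, GRCm39 chromosome 12, 113218450 to 113223856), had 6.14, 15.8, 18.7, 16.4 and 4.28 CPM and 16.3, 50.2, 24.0, 49.8 and 36.0 CPM. It too overlapped at late mouse 1 (log2 fold change 1.54, standard error 0.40, edgeR adjusted p = 0.0474). Each call held in 2 of 10 fits that leave out 1 mouse, and untreated mice lay between the groups, at 7.93 ± 4.02 CPM for Jchain and 19.4 ± 8.44 CPM for Igha (SD, n = 5 each). Ighg2b had a log2 fold change of 1.03 (edgeR adjusted p = 0.0526) and Ighg1 of 1.39 (edgeR adjusted p = 0.143), neither called. The plasma cell genes Sdc1 (0.20, edgeR adjusted p = 0.874) and Prdm1 (0.06, edgeR adjusted p = 0.951) and the constant region Ighg3 (-0.77, edgeR adjusted p = 0.231) did not pass. In a list of 11 antibody constant regions and the J chain, written after the data were seen, Jchain and Igha were the 2 called. They were 18.2% of that list, against 2.5% of all genes higher. In it 4 genes lay above 0, and the median was -0.19.

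Of 44 B cell genes edgeR called 0 (0 higher and 4 lower at an unadjusted p under 0.05) and DESeq2 called 2 lower, with a median of -0.29. Cd79a, the signaling chain of the B cell receptor, had 249, 276, 186, 187 and 168 CPM after early ND and 156, 306, 241, 98.9 and 142 CPM after late ND. Late mice 2 and 3, the libraries poor in 18S sequence, were the highest of their group, and without them the median of the list was -0.74. The antibody genes Ighm (-0.29) and Ighd (-0.35) did not pass either.

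No gene of the T cell receptor complex and its signaling passed edgeR's test. Of 39 genes, 39 lay below 0 with a median of -0.33, 0 higher and 14 lower at an unadjusted p under 0.05, and DESeq2 called 3 lower. Cd3e had 45.3, 46.0, 27.7, 46.0 and 41.5 CPM after early ND and 41.1, 35.1, 26.2, 34.1 and 28.4 CPM after late ND. The groups overlapped at early mouse 3 (log2 fold change -0.32, edgeR adjusted p = 0.255). Cd4 (-0.27), Cd8a (-0.23) and the kinase gene Fyn, with the smallest p of the list (-0.54, edgeR adjusted p = 0.0540), did not pass either. The sign of Cd3e, Cd4 and Cd8a turned positive with library totals.

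Among 23 genes of naive and central memory T cells, 1 fell (4.35% against 2.48% of all genes) and 0 rose, with a median of -0.40. That gene was Lef1, a transcription factor gene of naive T cells (ENSMUSG00000027985, GRCm39 chromosome 3, 130903919 to 131018005). It had 38.9, 48.2, 33.3, 51.6 and 45.3 CPM after early ND and 30.4, 32.8, 25, 28.8 and 27.7 CPM after late ND. All late mice lay below all early mice, with early mouse 3 and late mouse 2 close together, and the log2 fold change was -0.58 (standard error 0.13, edgeR adjusted p = 0.0292, called in 3 of 10 fits that leave out 1 mouse). The survival gene Bcl2, which is in the apoptosis list and not in this T cell list, fell by 0.51 on the log2 scale (63.2 ± 6.60 CPM to 44.1 ± 5.88 CPM, SD, n = 5 each). The cells behind its fall were not tested. Tcf7 (-0.23) and the lymph node homing receptor gene Ccr7 (-0.44) did not pass.

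Of 26 tested in the list of checkpoint and regulatory T cell genes, 23 were not called. Vsir and Cd80 rose (7.69% against 2.5% of all genes) and Cd274 fell (3.85%, near the 2.48% of all genes). Cd274, which encodes PD-L1 (ENSMUSG00000016496, GRCm39 chromosome 19, 29344529 to 29365495), had 44.9, 41.9, 42.9, 44.8 and 41.0 CPM after early ND and 34.0, 24.6, 22.7, 27.2 and 26.7 CPM after late ND. The groups did not overlap and the early mice lay within a narrow range. The log2 fold change was -0.67 (standard error 0.11, edgeR adjusted p = 0.0126), the call held in 10 of 10 fits that leave out 1 mouse, and untreated mice were at 30.5 ± 6.41 CPM (SD, n = 5), near the late mice. Another gene overlaps 0.20 of its exon bases.

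Vsir, which encodes the inhibitory ligand VISTA of myeloid cells, rose from 164 ± 51.5 CPM to 311 ± 77.9 CPM (SD, n = 5 each, log2 fold change 0.92), and Cd80, a ligand of both CD28 and CTLA-4, from 4.83 ± 1.7 CPM to 9.73 ± 2.43 CPM (1.03). Both overlapped between the groups. The regulatory T cell factor Foxp3 (-0.08, edgeR adjusted p = 0.860) and Ctla4, the target of the antibody (-0.09, edgeR adjusted p = 0.889), did not pass and changed sign in some settings. The genes Icos (0.12) and Tigit (0.43) did not pass.

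Of 41 cytotoxic and natural killer cell genes edgeR called 0 (4 higher and 5 lower at an unadjusted p under 0.05), and DESeq2 called 2 higher and 1 lower, with a median of -0.18. Ncr1, a receptor gene of natural killer cells, had 19.3, 17.8, 7.39, 17.2 and 14.3 CPM after early ND and 10.4, 10.9, 12.1, 8.94 and 10.8 CPM after late ND, with early mouse 3 the lowest of all. Its log2 fold change of -0.51 did not pass (edgeR adjusted p = 0.173), nor did those of the granzyme genes Gzma (-0.25) and Gzmb (-0.46) or of perforin, Prf1 (-0.15).

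Of 44 platelet genes tested, 5 were called lower and 0 higher (11.4% against 2.48% of all genes), 39 lay below 0, and the median was -0.43. The called genes were P2ry12, the ADP receptor of platelets, the collagen receptor gene Gp6, the adhesion gene Cd226, the granule protein gene Mmrn1 and Sparc. P2ry12 (ENSMUSG00000036353, GRCm39 chromosome 3, 59123682 to 59170429) had 351, 176, 304, 283 and 401 CPM after early ND and 213, 137, 187, 160 and 167 CPM after late ND. Early mouse 2 lay inside the late range, and the log2 fold change was -0.81 (standard error 0.20, edgeR adjusted p = 0.0420, called in 2 of 10 fits that leave out 1 mouse). Gp6 had 99.0, 71.7, 95.9, 88.0 and 147 CPM and then 68.9, 57.3, 52.4, 61.2 and 70.5 CPM, without overlap (-0.69). The abundant granule genes Pf4 (-0.39, edgeR adjusted p = 0.315) and Ppbp (-0.48, edgeR adjusted p = 0.250), and the integrin gene Itga2b (-0.46, edgeR adjusted p = 0.185), did not pass. With library totals the median of the list was 0.42.

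Of 15 basophil and eosinophil genes tested, 1 fell (6.67% against 2.48% of all genes). This was Itga2, a collagen-binding integrin gene also found on platelets and natural killer cells, with 32.6 ± 5.01 CPM after early ND and 17.4 ± 3.59 CPM after late ND (SD, n = 5 each, log2 fold change -0.91, edgeR adjusted p = 0.0126). The eosinophil receptor gene Siglecf was at 0.36 and did not pass, and Mcpt8, a basophil protease gene, was too low to test.

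Type I interferon acts through the factor complex ISGF3, which binds the interferon-stimulated response element, whose core repeats GAAA at a set spacing. The letters GAAANNGAAA were searched on both strands of the 250 bases before each gene's start in RefSeq's promoters (GRCm38.p6). They stood before 936 of 27025 genes (3.46%) and before 16 of the 42 listed interferon-stimulated genes with a promoter in that table (38.1%). Of the 3 members called in blood, Rsad2 and Isg15 held the letters and Ifit2 did not, in either of its 2 promoters listed. Windows of Rsad2 (chr12:26456518-26456617, minus strand), Isg15 (chr4:156200830-156200941, minus strand) and, as a member that was not called, Ifit1 (chr19:34640740-34640858, plus strand) are shown 5′ to 3′, with each match, overlapping ones joined, in capitals.
Rsad2: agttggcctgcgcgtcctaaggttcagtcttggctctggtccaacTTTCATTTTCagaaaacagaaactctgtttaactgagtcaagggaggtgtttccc
Isg15: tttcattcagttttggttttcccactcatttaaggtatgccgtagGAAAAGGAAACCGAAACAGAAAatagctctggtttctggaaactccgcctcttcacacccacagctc
Ifit1: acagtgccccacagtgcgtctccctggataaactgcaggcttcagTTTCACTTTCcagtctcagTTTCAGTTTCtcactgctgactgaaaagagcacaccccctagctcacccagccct

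Of 52 type I interferon-stimulated genes tested, 3 fell and 0 rose (5.77% against 2.48% of all genes), with a median of -0.14, or 0.03 in the libraries rich in 18S sequence. Rsad2, which encodes the antiviral enzyme viperin (ENSMUSG00000020641, GRCm39 chromosome 12, 26492745 to 26506451), had 250, 1032, 705, 1812 and 1188 CPM after early ND and 274, 168, 129, 168 and 75.7 CPM after late ND. The groups overlapped at early mouse 1, and the log2 fold change was -2.61 (standard error 0.46, edgeR adjusted p = 0.0130, called in 10 of 10 fits that leave out 1 mouse). Untreated mice had 871 ± 547 CPM (SD, n = 5). Isg15, a ubiquitin-like modifier, had 84.7, 215, 172, 726 and 512 CPM and then 123, 56.7, 48.0, 64.0 and 36.6 CPM, a log2 fold change of -2.38 (standard error 0.53, edgeR adjusted p = 0.0285). Overlap here was between late mouse 1 and early mouse 1, and another gene overlaps 0.31 of the exon bases of Isg15. Ifit2 fell by 0.89 on the log2 scale, from 84.8 ± 22.8 CPM to 45.7 ± 11 CPM (SD, n = 5 each).

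In the early mice Rsad2 and Isg15 were lowest in mouse 1, with a hemoglobin share of 38.3%, and highest in mouse 4, with 64.07%, while Ifit2 was lowest in mouse 3 and highest in mouse 5. The part of the red cell share in these falls was not tested apart from the group, since that share does not overlap between the groups. With that share as a covariate, the log2 fold change of Rsad2 was -0.33, that of Ifit2 was -0.31 and that of Isg15 was 0.49, none of them called. Members that did not pass spanned Irf7 (-1.31, edgeR adjusted p = 0.0939), Ifit1 (-1.14, edgeR adjusted p = 0.245), Mx1 (-0.37, edgeR adjusted p = 0.575) and Oas1a (0.38, edgeR adjusted p = 0.522). In Ifit1, Ifit3, Mx1 and Oas1a, late mouse 1 was the highest late mouse.

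**Figure D4:**
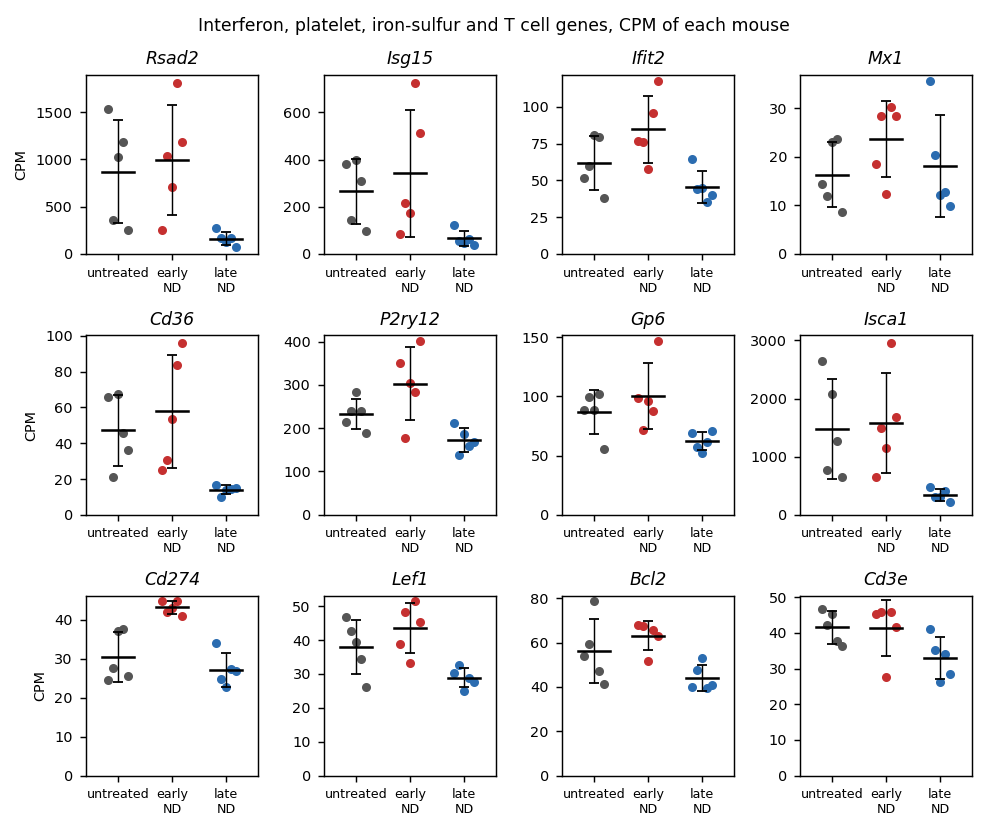
CPM (y axes, linear from 0) of 12 interferon, platelet, iron-sulfur and T cell genes in each untreated (grey), early ND (red) and late ND (blue) mouse, with means (lines) and 1 SD (error bars, n = 5). Cd274 after early ND stays within 41.0 to 44.9 CPM, all above the late mice, whereas the early values of Rsad2 spread from 250 to 1812 CPM and those of Cd3e and Mx1 overlap the late ones.

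Of 26 genes tested in the interferon-gamma list, the receptor chains Ifngr1 (log2 fold change 0.57) and Ifngr2 (0.53) rose, and the induced GTPase genes Gbp6 (-1.20) and Tgtp1 (-1.07) fell. Each pair was 7.69% of the list, against 2.5% of all genes higher and 2.48% lower, and the median was -0.37. Gbp6 had 4.86, 4.78, 4.87, 6.4 and 5.04 CPM after early ND and 3.85, 1.85, 2.07, 2.07 and 1.52 CPM after late ND. Its groups did not overlap, but both GTPases have near-identical copies that share reads, so their counts are uncertain. The chemokine gene Cxcl10 was low, at 2.05 ± 0.59 CPM and 0.874 ± 0.36 CPM (SD, n = 5 each), and did not pass (edgeR adjusted p = 0.0503).

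Of 42 genes of toll-like receptors, NF-kB and the inflammasome, 5 rose and 0 fell (11.9% against 2.5% of all genes higher), with a median of 0.29. They were Tlr5, the flagellin receptor (log2 fold change 1.05), Nod2, which senses muramyl dipeptide (0.76), the inflammasome sensor gene Nlrp1b (0.85), and the TNF receptors Tnfrsf1a (0.99) and Tnfrsf1b (0.69). Tlr5 had 4.57, 5.15, 5.97, 3.20 and 4.53 CPM after early ND and 7.70, 7.16, 9.03, 14.7 and 11.5 CPM after late ND, without overlap. The adaptor gene Card9, which signals for fungal receptors, also rose (1.00). Myd88, the adaptor of most toll-like receptors (0.81, edgeR adjusted p = 0.0698), and Tnf itself (0.55, edgeR adjusted p = 0.271) did not pass.

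Among 57 cytokine and TNF family receptor genes, a list written after the data were seen whose count supports nothing by itself, 12 rose, 0 fell and 45 were not called (21.1% against 2.5% of all genes higher). These included the interleukin 4 receptor chain Il4ra, from 153 ± 37.2 CPM to 270 ± 76.6 CPM, and Ltbr, the lymphotoxin receptor gene, from 20.1 ± 6.94 CPM to 42.0 ± 9.83 CPM (SD, n = 5 each). Il3ra (0.76), the TSLP receptor gene Crlf2 (0.70) and the kinase gene Jak3 (0.54) were others. Many of these receptors are carried by both monocytes and neutrophils, whose lists also moved up.

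In a list of 68 lysosome and proton pump genes, written after the data were seen as well, 13 rose, 0 fell and 55 were not called (19.1% against 2.5% of all genes higher). In it 60 lay above 0, and the median was 0.32. Tfe3, a transcription factor gene that drives lysosome formation, had 27.4, 22.6, 25.9, 22.8 and 27.2 CPM after early ND and 40.2, 33.1, 40.9, 49.2 and 43.4 CPM after late ND. The groups did not overlap, and the log2 fold change was 0.71 (standard error 0.12, edgeR adjusted p = 0.0126), called in 10 of 10 fits that leave out 1 mouse. The cystine transporter gene Ctns (0.76), the proton pump subunit gene Tcirg1 (0.65) and the protective protein gene Ctsa (0.56, 0.37 of whose exon bases another gene overlaps) rose as well.

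In the unfolded protein response list 2 of 22 rose (9.09% against 2.5% of all genes) and 0 fell, with a median of 0.26. Ern1, the sensor IRE1 that splices Xbp1 (ENSMUSG00000020715, GRCm39 chromosome 11, 106283818 to 106378686), had 30.9, 23.2, 27.7, 26.8 and 31.2 CPM after early ND and 48.2, 44.9, 42.9, 57.0 and 49.0 CPM after late ND. Every late mouse exceeded every early mouse by a clear margin, the log2 fold change was 0.79 (standard error 0.12, edgeR adjusted p = 0.0119), and the call held in 10 of 10 fits that leave out 1 mouse. The disulfide isomerase gene Pdia6 rose by 0.59, and Xbp1 itself was at 0.81 (edgeR adjusted p = 0.0775).

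Of 42 cell cycle genes 6 fell and 0 rose (14.3% against 2.48% of all genes lower), with a median of -0.30: Nusap1 (-2.53), Ube2c (-2.40), Tpx2 (-1.56), Birc5 (-1.49), Ccna2 (-1.48) and Rrm2 (-1.05). Nusap1, a spindle protein gene, had 32.3, 57.4, 47.3, 169 and 144 CPM after early ND and 20.4, 15.1, 10.2, 22.3 and 8.96 CPM after late ND, without overlap. For Nusap1, early mouse 1, with the lowest hemoglobin share of its group, was the lowest early mouse and mouse 4, with the highest share, the highest, and the part of red cell RNA was not tested. Mki67, a general marker of dividing cells (-0.61, edgeR adjusted p = 0.120), the topoisomerase gene Top2a (-0.99, edgeR adjusted p = 0.0583) and Pcna (-0.14) did not pass.

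In an iron-sulfur cluster assembly list, written after the data were seen, 6 of 20 fell (30% against 2.48% of all genes). They were Bola3, Isca1, Glrx5, Slc25a39, Hscb and Iscu, with log2 fold changes from -2.25 to -1.71, and in each of them every late mouse lay below every early mouse. Isca1 had 644, 1498, 1156, 2950 and 1675 CPM after early ND and 477, 300, 303, 413 and 215 CPM after late ND. Early mouse 1 was the lowest and early mouse 4 the highest of the early group in Isca1, as in the hemoglobin share, whose part in these falls was not tested. Of 44 autophagy genes, a list of the same origin, 8 fell (18.2% against 2.48% of all genes) and 2 rose (4.55% against 2.5%). Fundc2 (-1.73), Atg4a (-1.80) and the Beclin gene Becn1 (-1.06) were among the former, and Atg9a (0.93) and Atg3 (0.84) were the latter.

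Among called protein-coding genes with at least 50 mean counts and under 20% exon overlap, the largest falls outside the red cell and neutrophil lists were Diaph3 (-2.74), Prxl2a (-2.67), Rsad2, Nusap1, Specc1 (-2.44), Ube2c, Cdr2 (-2.39), Ghitm (-2.37), Ybx3 (-2.30) and Aldh1a1 (-2.27). Diaph3, a formin gene of the actin skeleton, had 58.4, 75.6, 53.1, 201 and 159 CPM after early ND and 18.1, 21.9, 14.6, 18.2 and 8.09 CPM after late ND. The summed red cell list took at least 41.13% of counts in each early mouse and at most 31.44% in each late mouse, and the part of red cell RNA in these falls was not tested. In the fit with the hemoglobin share as a covariate, 229 of the 278 falls stayed below 0 and 312 of the 312 rises stayed above 0, with none called. The hemoglobin share does not overlap between the groups, and the genes were called on the same values. These signs are therefore no test of the part of red cell RNA in the rises or falls.

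Lists for protein synthesis and respiration held few calls by edgeR. Among 80 cytosolic ribosomal protein genes 1 fell (Rpl41, -1.08), or 1.25% against 2.48% of all genes. In that list 2 genes lay above 0, and the median was -0.29. At an unadjusted p under 0.05 in edgeR's test, 0 of the 80 were higher and 32 lower, against 1921 and 1242 of all 13315 genes. DESeq2 called 23 of the 80 lower, against 670 of the 13315. The 10 mitochondrially encoded genes all lay below 0 with a median of -0.68 and 0 called by edgeR or DESeq2 (0 higher and 3 lower at an unadjusted p under 0.05). Of 35 nuclear genes of the respiratory chain 1 fell (Atp5f1b, -0.85), or 2.86%, near the 2.48% of all genes, and the median was 0.01.

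Smaller lists gave few calls. The shares called higher and lower, against 2.5% and 2.48% of all genes, were 8.7% and 4.35% for complement and 11.1% and 5.56% for matrix. They were 4.35% and 0% for the glucocorticoid list and 4.55% and 4.55% for the immediate early list. For the clock they were 0% and 11.1%, for glycolysis 0% and 3.45%, and for apoptosis 5% and 5%. In complement and coagulation, C4b (1.31) and C1rl (1.86, with 0.40 of its exon bases overlapped by another gene) rose, of 23 tested. Cd59a, which shields cells from complement and is also in the red cell list, fell (-0.78). In extracellular matrix and adhesion, Fn1, Vcan, Itga5 (0.88) and Adam15 (1.00) rose, and Sparc (-1.85) and Pecam1 (-0.53) fell, of 36 tested. The glucocorticoid list of 23 gave 1 rise, the kinase gene Map3k6 (1.5), and the immediate early list of 22 gave the mRNA-decay factor Zfp36 (0.90) up and Ppp1r15a (-1.34) down. Of 18 clock genes Tef (-0.60) and Nr1d2 (-0.50) fell. Pdk1, a pyruvate dehydrogenase kinase gene, fell (-0.60) in a glycolysis and hypoxia list of 29 whose median was 0.38. The initiator caspase gene Casp9 rose (0.54) and Bcl2 fell among 20 of the Bcl2 family and apoptosis. The lists of 23 chemokine genes and 33 genes of cholesterol and fatty acid synthesis had 0 called by edgeR, with 7 higher and 2 lower, and 2 higher and 1 lower, at an unadjusted p under 0.05. DESeq2 called 3 higher and 1 lower in the former and 2 higher and 1 lower in the latter. Other rises of large fold were Galnt9, a glycosyltransferase gene (1.41), and Cysltr1, a leukotriene receptor gene (1.29).

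Cheek bleeds can carry tissue. Of the genes listed for skin and sebaceous gland, 10 of 28 could be tested, as could 4 of 14 for skeletal muscle and 4 of 16 for salivary gland, fat and vessel, and edgeR called 0 of them (0 higher and 0 lower for skin, 0 and 1 for muscle, and 0 and 3 for the last list at an unadjusted p under 0.05). DESeq2 called 2 genes of the last list lower. The summed skin list was 877 CPM in early mouse 3 and 78.5 to 106 CPM in the other early mice. In late mouse 5 it was 1025 CPM, and in the other late mice 132 to 321 CPM. The summed cholesterol and fatty acid list was also highest of its group in early mouse 3 (5132 CPM) and late mouse 5 (5110 CPM). The part of skin in the results of these mice was not tested.

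Ratios of 2 genes within a library do not depend on scaling. Each was tested over the 10 mice by an exact permutation test, two-sided, with adjustment over 16 ratios. The smallest p that 5 mice against 5 allow is 0.00794, or 0.127 after adjustment for a ratio that reaches it alone, so complete separation in a single ratio could not pass. None passed. Csf1r to Cd3e, monocyte against T cell genes, had a mean log2 ratio of 1.23 ± 0.49 after early ND and 2.30 ± 0.45 after late ND (SD, n = 5 each), and 4 of 5 late mice lay above all early mice (difference 1.07, exact permutation p = 0.0238, adjusted p = 0.190). Jchain to Cd79a, secreting against surface B cell genes, differed by 1.96 with 4 of 5 late mice above all early mice (exact permutation p = 0.0159, adjusted p = 0.190). Lef1 to Cd3e differed by -0.26 (exact permutation p = 0.0476, adjusted p = 0.222). Csf3r to Csf1r, neutrophil against monocyte genes, differed by 0.16 (exact permutation p = 0.587, adjusted p = 0.783).

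Among lymphocyte genes, Cd8a to Cd4 had a mean log2 ratio of 0.12 ± 0.27 after late ND and 0.10 ± 0.29 after early ND (SD, n = 5 each, exact permutation p = 0.952), Foxp3 to Cd3e differed by 0.25 (exact permutation p = 0.278, adjusted p = 0.677) and Cd79a to Cd3e by 0.05 (exact permutation p = 0.889, adjusted p = 0.948). The last was -0.44 without late mice 2 and 3. Camp to Csf3r differed by -1.67 (exact permutation p = 0.0556, adjusted p = 0.222), with Camp, a granule gene of young neutrophils, at 1.33, 0.857 and 1.32 CPM in late mice 2, 3 and 4 and 4.27 and 6.00 CPM in late mice 1 and 5.

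**Figure D5:**
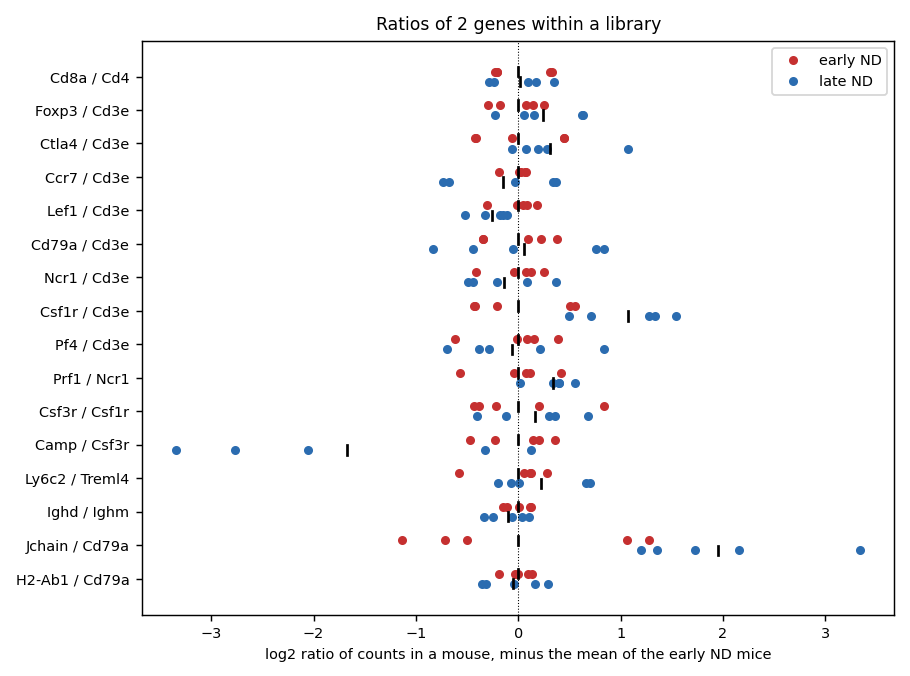
Log2 ratio of 2 genes' counts within each early ND (red) and late ND (blue) mouse, minus the mean of the early mice (x axis), for 16 ratios (y axis), with group means as black bars. For Csf1r / Cd3e and Jchain / Cd79a, 4 of 5 late mice lie above every early mouse, and no ratio passed after adjustment.

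The red cell list itself gave 1 rise (1.09% against 2.5% of all genes) and 52 falls (56.5% against 2.48%) among 92 genes (median -1.38). The neutrophil list gave 20 rises (14.7%) and 0 falls among 136 genes (median 0.89). The catalase gene Cat fell by 1.51 on the log2 scale. Tlr2 (1.29), Csf2ra, a GM-CSF receptor chain (1.00), and Itgb2l (1.87) were the 3 neutrophil genes with the smallest p. Both lists also hold genes that other cells express, and genes outside them can be expressed in red cells or neutrophils. Each library is 1 mouse by the labels, and p-values cover the spread among these mice.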

How the data were processed

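Whole blood from 15 mice (5 untreated, 5 early ND, 5 late ND) was sequenced, 1 library per mouse. Raw counts of read pairs per gene were deposited by the authors. The submitters' processing notes name STAR 2.7.9, SAMtools 1.7 and HTSeq 0.13.5 and the builds GRCm39 and mm10, and the counting strand and annotation release are not given in the sources used here. Pairs that the counting assigned to no feature (50.62% to 55.07% of uniquely placed pairs) were dropped. Because the counting strand is not given, this share need not mean reads outside genes.

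Counts of the 10 ND libraries were filtered (filterByExpr), TMM-scaled and tested with edgeR 4.0.16 (R 4.3.3, quasi-likelihood, two-sided, Benjamini-Hochberg over all genes tested), and DESeq2 1.42.0 was an alternative. The test was checked on counts simulated with the same dispersion for every gene and the same makeup in both groups. These libraries differ from that setting, since their red cell share does not overlap between the groups. Ratios used counts plus 0.5. Untreated CPM was scaled to the same reference. Red cell and neutrophil genes were separated by lists, which need not be complete. Named genes were the called members with the smallest p per list and direction (or the smallest p where none was called), the 10 largest rises and 10 largest falls outside both lists (protein coding, at least 50 mean counts, under 20% exon overlap), defining markers, ratio genes, and 3 members each of the red cell and neutrophil lists. Some of these genes are not reported here. The members and lists were chosen with earlier results of these data known. The lysosome, receptor, iron-sulfur, autophagy and antibody lists were added after seeing the data. The mice share numbers across groups, but same-numbered libraries did not deviate together (r from -0.175 to 0.509, mean -0.00849), so no pairing was used. Alternatives changed the test, scaling, filter, libraries, covariate, block and prior count.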

Additional observations from a re-analysis of the deposited data

Results flagged for a closer look

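In 12 of 202 groups of 5 mice, 1 mouse stood apart from the others by Dixon's test, which chance alone does in about 1 in 20 groups. Early mouse 3 was low for the lymphocyte genes Cd3e (27.7 CPM, the others 41.5 to 46 CPM) and Cd8a (26.9 CPM, the others 47.6 to 53.3 CPM). The same mouse was low for Bcl2 (51.9 CPM, the others 62.9 to 67.7 CPM), Pdk1 (52 CPM, the others 65.6 to 68 CPM) and Cd83 (13.4 CPM, the others 21 to 23 CPM). Without early mouse 3, 962 genes outside the red cell and neutrophil lists were called higher after late ND.

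Early mouse 1 was low for Cat (177 CPM, the others 351 to 430 CPM) and for the log2 ratios of Ccr7 to Cd3e (0.645, the others 0.841 to 0.909) and Ly6c2 to Treml4 (1.8, the others 2.44 to 2.66). Early mouse 4 was high for Gbp6 at 6.4 CPM, with the others at 4.78 to 5.03 CPM. Late mouse 3 was low for Galnt9 (5.34 CPM, the others 6.77 to 7.2 CPM) and high for Ctla4 (6 CPM, the others 3.76 to 4.27 CPM). Late mouse 5 was low for Psme1 at 50.3 CPM, with the others at 58.2 to 61.7 CPM.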

How the results depend on the processing

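Over all genes, the calls (333 higher and 330 lower) were 769 and 670 with DESeq2, and 8908 and 137 with library totals. With only the libraries rich in 18S sequence they were 4 and 0, with hemoglobin as a covariate 0 and 0, and without early mice 4 and 5, an alternative chosen after seeing the data, 74 and 80. Rises numbered 201 with DESeq2's size factors, 886 without a filter and 210 with the red cell list out of the scaling. Outside the red cell and neutrophil lists, the calls (312 and 278) were 699 and 606, 8758 and 97, 3 and 0, 0 and 0, and 72 and 64 under the first 5 of these settings in the same order, and rises were 189, 794 and 196 under the last 3. Leaving out 1 mouse gave 36 to 1057 rises and 106 to 553 falls over all genes, and 36 to 962 and 84 to 499 outside both lists. With the replicate block the calls were 368 and 305, and 1 of 5 early libraries was most alike the late library of its own number. The cause of these moves was not tested.

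No ratio passed its test under adjustment. Without the libraries poor in 18S sequence the difference for Cd8a to Cd4 was -0.14, for Cd79a to Cd3e -0.44, for Csf3r to Csf1r -0.074 and for H2-Ab1 to Cd79a 0.14. Leaving out 1 mouse gave -0.062 to 0.10 for Cd8a to Cd4, -0.14 to 0.28 for Cd79a to Cd3e, -0.29 to 0.092 for Pf4 to Cd3e and -0.14 to 0.023 for H2-Ab1 to Cd79a.

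With library totals, which move the median gene to 0.86, the log2 fold changes of these genes, negative with TMM, were above 0: Psme1 0.62, Krt6a 0.35, Bcl2 0.35, Fyn 0.31, Pdk1 0.28, Tef 0.24, Cd83 0.23, Cd274 0.16, Cd226 0.16, Mylpf 0.10, Cd59a 0.13, Ell2 0.084, Atp5f1b 0.075, Lef1 0.31, Gzma 0.57, Itga2b 0.37, Xcr1 0.12, Foxp3 0.80, Ctla4 0.71, Cd79a 0.69, Cd8a 0.64, Cd4 0.62, Ighm 0.59, Cd3e 0.53, Pf4 0.50, Ncr1 0.35, Prf1 0.67, H2-Ab1 0.56, Ighd 0.51, Camp 0.40 and Ccr7 0.48. With the hemoglobin covariate Psme1 was at 0.36, Ppp1r15a at 0.15, Foxp3 at 0.29, Cd4 at 0.22 and Cd3e at 0.12. Camp was at 0.086 among libraries rich in 18S sequence. Foxp3 ran from -0.26 to 0.0051 when 1 mouse was left out (above 0 without early mouse 2) and was at 0.035 without early mice 4 and 5. Ctla4 ran from -0.25 to 0.10 when 1 mouse was left out (above 0 without early mouse 1 or 2).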

Other observations

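Beyond the lists, genes called higher in all 10 fits that leave out 1 mouse included Ppard, a lipid-sensing nuclear receptor gene that was also called among the libraries rich in 18S sequence, and Vill, a villin-like gene.

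The hemoglobin chains were counted in different proportions in 3 libraries. The ratio of beta (Hbb-bs and Hbb-bt) to alpha (Hba-a1 and Hba-a2) counts was 0.558 in untreated mouse 2, 0.456 in late mouse 2 and 0.434 in late mouse 3, the libraries poor in 18S sequence. In the other 12 libraries it ran from 1.6 to 2.15.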
